A study of Mus musculus with 6 samples.

Results

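The genes described here are 10 members of the NF-kB system: the 5 subunit genes Nfkb1, Nfkb2, Rel, Rela and Relb, the inhibitor genes Nfkbia, Nfkbie, Nfkbiz and Tnfaip3, and Socs3, a feedback inhibitor of cytokine receptor signalling. They were taken by symbol from a table of 25509 genes, and all 10 were found, each on 1 row. Poly-A RNA had been sequenced from peritoneal macrophages of C57BL/6 mice, 3 wild-type (WT) libraries and 3 libraries labelled JWT (Tg-ACE), called Tg-ACE here, from mice that overexpress angiotensin-converting enzyme (ACE). All cells had been drawn into the peritoneal cavity by thioglycollate, an irritant, collected on day 4, purified on a Percoll gradient and kept if they adhered within 2 h. The labels name no stimulus given in culture. The age and sex of the mice, and the promoter that drives ACE, are not given in the sources used here. The sample descriptions mark replicate 1 of each genotype as Exp-156 and the other replicates as Exp-156b, so that each experiment code holds both genotypes. What the codes mean is not stated, nor is it stated that replicates came from separate mice, so p-values measure the spread between these libraries, which may in part be technical.

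NF-kB proteins are dimers of the 5 subunits that in resting cells are held in the cytoplasm by inhibitors of the IkB family. Signals from Toll-like, interleukin-1 and tumour necrosis factor receptors lead an IkB kinase to mark these inhibitors for destruction, and the freed dimers switch on inflammatory genes. Among the genes they switch on are those of their own inhibitors, which closes a feedback loop that is well known in macrophages. A second route, through the kinase encoded by Map3k14, processes the Nfkb2 product and acts mainly with the Relb protein.

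The libraries held between 24294258 and 28120394 expected counts, and each of the 10 genes had between 219 and 3482 counts in every library, far above the 3 counts taken as the limit of detection. All 60 member values were whole numbers, that is, none carried the fraction that an estimate can leave when reads are shared between genes. Ace stood higher in each Tg-ACE library (25.6 to 100.6 CPM, counts scaled to the library's normalized size) than in any WT library (7.60 to 16.7 CPM). The libraries differed far more by experiment code than by genotype: in one edgeR fit with both terms, 42.9% of 12827 tested genes differed by code and 0.0156% by genotype (quasi-likelihood test, adjusted p under 0.05). The genes that passed by genotype, 2 in all, were lower in Tg-ACE, so the overexpressed Ace itself did not pass. The level of the female-specific Xist RNA was 0.41 and 0.53 CPM in the Exp-156 libraries but 327.3 to 454.5 CPM in those of Exp-156b, so the code cannot be told apart from the sex of the mice or from anything else that differed between the experiments.

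Between the genotypes none of the 10 genes passed, while 7 of them were higher in Exp-156 than in Exp-156b and 0 were lower. The 7 were Nfkb1, Nfkb2, Nfkbia, Nfkbie, Nfkbiz, Tnfaip3 and Socs3, that is, the 5 genes listed here as inhibitors, which act in different ways, and the 2 subunit genes that encode precursor proteins. Over all tested genes 22.9% were higher in Exp-156 and 20% were lower by the same test. The median log2 difference by code was 0.38 over the 10 genes and 0.00 over all tested genes. The 2 Exp-156 libraries lay above all 4 Exp-156b libraries for the same 7 genes, against 30.9% of all tested genes, and below them for 1, Relb, against 28.9%. The list was chosen with earlier results of these data known, so these shares describe it and single nothing out.

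**Figure D1:**
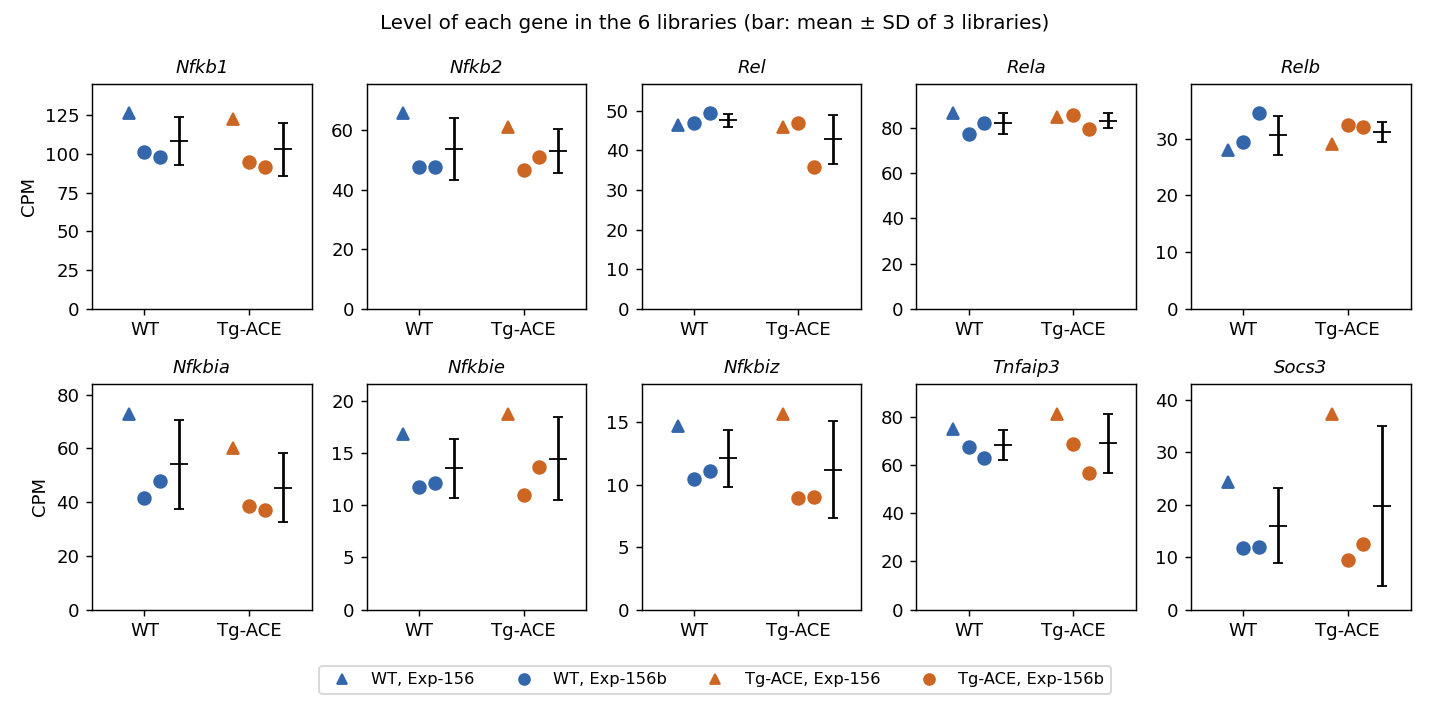
Level of each of the 10 genes in CPM (vertical axes, from 0) in the 3 WT and 3 Tg-ACE libraries; triangles are Exp-156, circles Exp-156b, and bars the mean ± SD of 3 libraries. For Nfkb1, Nfkb2, Nfkbia, Nfkbie, Nfkbiz, Tnfaip3 and Socs3 both triangles stand above all 4 circles, and the genotypes overlap for every gene.

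Nfkbia encodes IkB-alpha, the inhibitor that holds the most common NF-kB dimers and is remade fastest after a signal. Its position in GRCm38 is chromosome 12, 55489410 to 55492647, reverse strand. Nfkbia stood at 73.0, 41.6 and 47.9 CPM in WT replicates 1 to 3 and at 60.2, 38.6 and 37.2 CPM in Tg-ACE replicates 1 to 3. Both Exp-156 libraries were thus above all others. Within each experiment every WT library was above every Tg-ACE library, as also held for Nfkb1 and Rel. The mean of Exp-156 was 1.61 times that of Exp-156b, and the fitted log2 fold change by code was 0.69 (SE 0.08; edgeR adjusted p = 4.1e-04). The difference by genotype was -0.25 on the log2 scale (SE 0.07), the only one of the 10 under 0.05 before adjustment (unadjusted p = 0.0096), and it did not pass over all genes (edgeR adjusted p = 0.761). Tg-ACE had 0.826 times the WT level within Exp-156 and 0.848 times within Exp-156b. Over its 15 alternative settings the genotype difference of Nfkbia stayed between -0.31 and -0.20, with adjusted p from 0.4705 to 0.9998.

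Nfkbie encodes IkB-epsilon, a second classical inhibitor that acts more slowly, and is found on chromosome 17 (45555703 to 45563169, forward strand). Its levels were 16.9, 11.8 and 12.1 CPM in WT and 18.8, 10.96 and 13.7 CPM in Tg-ACE, in the order of the replicates. The Exp-156 libraries were the highest in both genotypes, at 1.47 times the Exp-156b mean (log2 fold change 0.55, SE 0.11; edgeR adjusted p = 0.0062). Nfkbiz encodes IkB-zeta, a nuclear member of the family that helps to turn on secondary response genes such as Il6 rather than holding dimers in the cytoplasm. Its place is chromosome 16 (55811375 to 55838899, reverse strand). Nfkbiz stood at 14.7, 10.4 and 11.1 CPM in WT and at 15.7, 8.925 and 9.003 CPM in Tg-ACE. Again replicate 1 of each genotype was highest, at 1.54 times the Exp-156b mean (log2 fold change 0.63, SE 0.12; edgeR adjusted p = 0.0041). Within Exp-156b both Tg-ACE libraries were below both WT libraries for Nfkbiz, but within Exp-156 the Tg-ACE library was the higher one. Without Tg-ACE replicate 1 neither gene passed by code (adjusted p = 0.0738 for Nfkbie and 0.0619 for Nfkbiz), with log2 fold changes of 0.50 and 0.45. The count of 7 then became 4.

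Tnfaip3 encodes A20, an enzyme that edits ubiquitin chains on signalling proteins upstream of the IkB kinase and so shuts the pathway off. Its place is chromosome 10 (19000910 to 19015657, reverse strand). Its levels were 75.0, 67.3 and 62.7 CPM in WT and 81.2, 68.6 and 56.8 CPM in Tg-ACE. Replicate 1 was highest in both genotypes, but the step down to the next library was small. The mean of Exp-156 was 1.22 times that of Exp-156b (log2 fold change 0.29, SE 0.09; edgeR adjusted p = 0.037). This was the least secure of the 7 calls. It ended when replicate 1 was left out of WT (adjusted p = 0.0744) or of Tg-ACE (adjusted p = 0.274), when replicate 3 was left out of WT (adjusted p = 0.101) or of Tg-ACE (adjusted p = 0.0637), and with upper-quartile scaling (adjusted p = 0.0808). Between genotypes the Tnfaip3 difference was 0.00 on the log2 scale (SE 0.09).

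Socs3 differed most among the 10 by code. Its product blocks the gp130 family of cytokine receptors and their kinases, is switched on by the transcription factor STAT3, and acts beside the NF-kB loop rather than on NF-kB dimers. The gene is on chromosome 11 (117966079 to 117970047, reverse strand). Socs3 stood at 24.3, 11.8 and 11.9 CPM in WT and at 37.3, 9.52 and 12.5 CPM in Tg-ACE, from 595, 331, 300, 1062, 239 and 305 counts. The 4 Exp-156b libraries lay close together, whereas both Exp-156 libraries were far above them and apart from each other. Exp-156 held 2.70 times the Exp-156b level (log2 fold change 1.42, SE 0.17; edgeR adjusted p = 5.8e-04), and leaving out single libraries gave 1.04 to 1.76 on the log2 scale. Tg-ACE had 1.53 times the WT level within Exp-156 and 0.932 times within Exp-156b. The test of that difference between the experiments gave a log2 value of 0.72 (SE 0.24, unadjusted p = 0.0236), which did not pass over all genes (edgeR adjusted p = 0.646). Exp-156 holds 1 library a genotype, so the fit has 2 residual degrees of freedom, both from the Exp-156b libraries, and the SE and p assume that Exp-156 varies as they do.

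Because the genes listed as inhibitors were all higher in Exp-156, the DNA before their start sites is shown, with Rel beside them as a member that was not. RefSeq promoter entries of GRCm38 matched 7 of the 10 genes, and Nfkb1, Relb and Nfkbiz had none. Capitals mark matches, on either strand, to GGG, any 3 bases and TTCC, a spelling of the site that NF-kB dimers bind, or to TTCNNNGAA, a spelling of a STAT site. The stretches read 5′ to 3′ on the strand of the gene, are at most 250 bases long, end at or before the start site and leave out annotated exons. Tnfaip3 has 2 entries, of which the one at the start of the gene is shown.
Nfkbia, chr12:55492648-55492897, reverse strand: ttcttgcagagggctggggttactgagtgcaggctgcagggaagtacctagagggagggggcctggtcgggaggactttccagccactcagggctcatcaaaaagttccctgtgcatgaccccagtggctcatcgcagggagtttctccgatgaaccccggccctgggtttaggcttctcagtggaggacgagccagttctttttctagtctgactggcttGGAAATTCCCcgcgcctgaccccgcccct
Nfkbie, chr17:45555450-45555699, forward strand: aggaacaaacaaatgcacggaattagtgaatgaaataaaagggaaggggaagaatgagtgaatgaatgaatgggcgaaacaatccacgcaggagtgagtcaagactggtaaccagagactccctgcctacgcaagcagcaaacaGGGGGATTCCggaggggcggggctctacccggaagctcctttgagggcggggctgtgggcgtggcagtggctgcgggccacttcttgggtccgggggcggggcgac
Tnfaip3, chr10:19015411-19015547, reverse strand: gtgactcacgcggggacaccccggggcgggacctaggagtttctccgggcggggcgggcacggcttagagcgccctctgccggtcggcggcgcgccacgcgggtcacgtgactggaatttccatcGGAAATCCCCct
Socs3, chr11:117969452-117969616, reverse strand: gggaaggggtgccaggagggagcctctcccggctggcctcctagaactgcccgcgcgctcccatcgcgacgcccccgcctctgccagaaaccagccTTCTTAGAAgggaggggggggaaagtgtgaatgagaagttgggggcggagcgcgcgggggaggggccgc
Rel, chr11:23770971-23771219, reverse strand: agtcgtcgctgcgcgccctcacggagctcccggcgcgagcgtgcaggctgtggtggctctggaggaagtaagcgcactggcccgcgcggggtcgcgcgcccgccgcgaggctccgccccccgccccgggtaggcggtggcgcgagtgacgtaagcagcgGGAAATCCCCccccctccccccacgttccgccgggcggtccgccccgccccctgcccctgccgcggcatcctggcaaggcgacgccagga
The Nfkbia match, GGAAATTCCC, begins 29 bases before the start site, and the Nfkbie match, GGGGGATTCC, begins 106 bases before it. Tnfaip3 and Rel hold the same letters, GGAAATCCCC, beginning 12 and 91 bases before their start sites. The Socs3 stretch holds no match to the NF-kB spelling and 1 match to the STAT spelling, TTCTTAGAA, and it lies between exons of a longer annotated Socs3 transcript. In the 250 bases before the start sites, 5 of the 7 members had a match to the NF-kB spelling, including Nfkb2. Counted by window, 8 of their 10 had one, against 4.65% of all 32851 promoter windows and 5.19% of 12354 windows of tested genes. For TTCNNNGAA it was 2 of 7 members, Socs3 and Nfkb2, and 2 of 10 windows, against 7.02% and 5.98%. Nfkb2 has 3 windows, with 250, 167 and 234 bases in annotated exons. The spellings were settled with these sequences in view, so the counts only describe them. A match is no evidence of binding, and the part of the matches in the differences by code was not tested. Rel, with a match to the NF-kB spelling, did not pass by code, nor did Rela, which had a match to neither spelling.

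Nfkb1 and Nfkb2 encode the precursors p105 and p100, from which the DNA-binding subunits p50 and p52 are cut and which themselves hold other subunits in the cytoplasm. Nfkb1 (chromosome 3, 135584655 to 135691547, reverse strand) stood at 126, 101 and 97.9 CPM in WT and at 122, 94.7 and 91.2 CPM in Tg-ACE. Nfkb2 (chromosome 19, 46304320 to 46312385, forward strand) stood at 65.7, 47.7 and 47.7 CPM in WT and at 61.0, 46.7 and 51.0 CPM in Tg-ACE. In both genes the 2 Exp-156 libraries stood clear of the other 4, which differed little. Exp-156 held 1.29 times the Exp-156b level of Nfkb1 (log2 fold change 0.37, SE 0.06; edgeR adjusted p = 0.0025). For Nfkb2 it held 1.31 times (0.39, SE 0.07; edgeR adjusted p = 0.0038). Nfkb2 overlaps exons of Psd on the opposite strand, which averaged 2.54 CPM, and no source used here says whether counting used strand. By genotype, Nfkb1 differed by -0.08 (SE 0.06) and Nfkb2 by -0.01 (SE 0.07) on the log2 scale.

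Rela, Rel and Relb encode the subunits p65, c-Rel and RelB, which carry the domain that activates transcription, and none of them passed by code or genotype. Rela stood between 77.1 and 86.4 CPM over all 6 libraries, with a log2 difference of 0.08 by code (SE 0.07) and 0.02 by genotype (SE 0.07). Rel stood at 46.4, 47.0 and 49.4 CPM in WT and at 45.85, 47.0 and 35.7 CPM in Tg-ACE. Tg-ACE replicate 3 was the low library, and the other 5 lay close together. The log2 difference of Rel by genotype was -0.15 (SE 0.11; edgeR adjusted p = 0.8285), and -0.02 without Tg-ACE replicate 3. Relb stood at 27.9, 29.4 and 34.5 CPM in WT and at 29.1, 32.4 and 32.0 CPM in Tg-ACE, the lowest level in each genotype being that of Exp-156. It was the only one of the 10 genes below 0 by code (log2 difference -0.17, SE 0.08; edgeR adjusted p = 0.139).

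**Figure D2:**
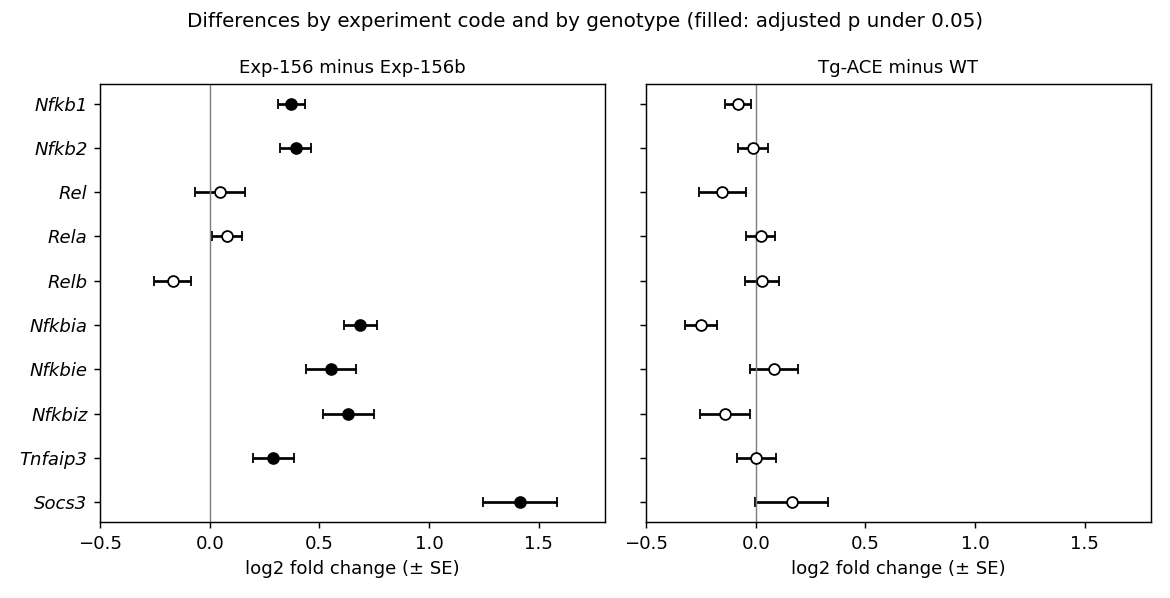
Log2 fold change ± SE (horizontal axes) of the 10 genes by experiment code, left, and by genotype, right, from 1 edgeR fit with both terms; filled points passed at adjusted p under 0.05. On the left 7 genes are filled, from 0.29 (Tnfaip3) to 1.42 (Socs3), and on the right none is, the values running from -0.25 (Nfkbia) to 0.16 (Socs3).

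By genotype the log2 fold change was positive for 5 of the 10 genes and negative for 5. Its median was -0.00, against -0.01 over all tested genes. None passed in edgeR, DESeq2 or limma-voom with the code in the fit, and 1, Nfkbia, had an unadjusted p under 0.05 in edgeR. The genotype groups overlapped for all 10 genes, and they did not overlap for 4.91% of all tested genes. An exact two-sided permutation test of 3 against 3 libraries cannot go below p = 0.1, and it gave p = 0.5 for Nfkbia and 0.2 for Rel. Neither the overlap of the groups nor this test takes account of the code, by which Nfkbia differed more than by genotype. For Nfkbia, Nfkb1 and Rel every WT library was above every Tg-ACE library of the same experiment. How often this order occurs over all tested genes was not counted. Within Exp-156, 5 of the genes were higher in the Tg-ACE library, and within Exp-156b 6 were lower on average in Tg-ACE. For 5 genes (Nfkb2, Rela, Nfkbiz, Tnfaip3 and Socs3) the ratio pointed opposite ways in the 2 experiments. The difference between the experiments was tested as an interaction, in which 0 of the 10 genes passed in edgeR, DESeq2 or limma-voom, 1 (Socs3) had an unadjusted p under 0.05 in edgeR, and 0% of all genes passed in edgeR.

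**Figure D3:**
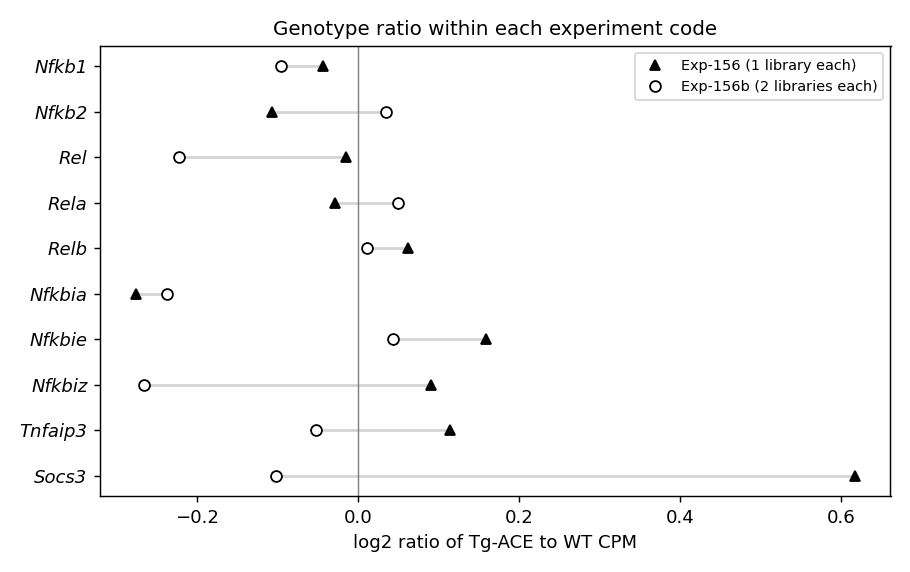
Log2 ratio of Tg-ACE to WT CPM (horizontal axis) for each gene within Exp-156, filled triangles from 1 library a genotype, and within Exp-156b, open circles from means of 2. Nfkbia lies below 0 in both (-0.28 and -0.24), as do Nfkb1 and Rel. Socs3 lies at 0.62 in Exp-156 and -0.10 in Exp-156b.

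Levels were compared between genes as CPM per kilobase of annotated exon. Nfkbia was highest at 30.9 ± 8.78 (SD, n = 6), followed by Rela at 26.9 ± 1.21, Nfkb2 at 11.6 ± 1.76, Tnfaip3 at 9.49 ± 1.199, Nfkb1 at 8.75 ± 1.24, Relb at 7.95 ± 0.639, Socs3 at 6.19 ± 3.76, Rel at 6.06 ± 0.6455, Nfkbie at 4.61 ± 1.03 and Nfkbiz at 2.32 ± 0.577. The ranges of neighbours in this order overlapped over the 6 libraries except at 2 steps, from Rela to Nfkb2 and from Nfkbie to Nfkbiz. Library by library, Nfkb2 was also above Tnfaip3 in 6 of 6. Nfkbia and Rela changed places with the library: Nfkbia was above Rela in 4 libraries and below it in the 2 Tg-ACE libraries of Exp-156b. The ratio of Nfkbia to Rela per kilobase was 1.61, 1.03 and 1.11 in WT and 1.36, 0.862 and 0.897 in Tg-ACE. It was highest in Exp-156, and within each experiment it was higher in WT. With the longest transcripts it was 1.45, 0.928 and 1.0 in WT and 1.22, 0.778 and 0.809 in Tg-ACE, so which of the 2 genes stood higher in the WT libraries of Exp-156b rests on the length. The place of Nfkb1 rests on its length, since its annotated exons span 12061 bases and its longest annotated transcript 4149. With transcript lengths Nfkb1 ranked behind Nfkbia and Rela, at 25.4 CPM per kilobase, and 7 of the 10 genes kept their place.

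**Figure D4:**
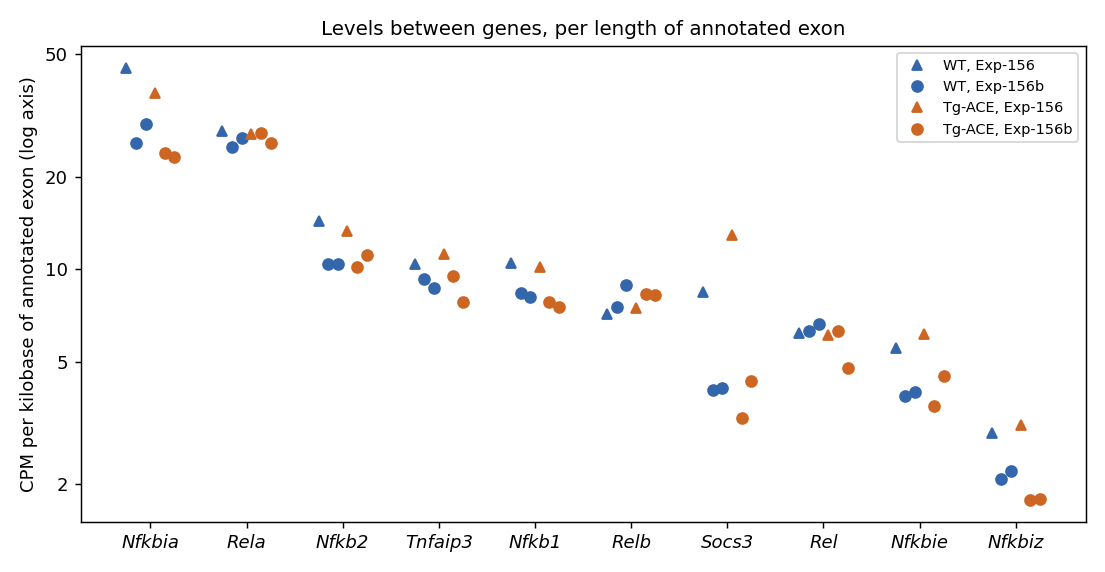
CPM per kilobase of annotated exon (vertical log axis) of the 10 genes, ordered by mean, 1 point a library; triangles are Exp-156 and circles Exp-156b. Nfkbia and Rela lead at 30.9 and 26.9 on average, the Rela points lie close together, and the Socs3 triangles stand apart from its circles.

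The make-up of the 5 subunit mRNAs shifted with the experiment code. Their levels per kilobase of annotated exon summed to 66.3 and 64.65 CPM per kilobase in Exp-156 and to 57.5 to 60.7 in Exp-156b. Of this sum Nfkb1 made up 15.7% and 15.8% in Exp-156 against 13% to 14.5% in Exp-156b, and Nfkb2 20.6% and 21.6% against 16.8% to 19.4%. Rela made up 42.4% and 42.6% against 43.5% to 46%, and Relb 10.8% and 11.6% against 13.1% to 14.6%. The shares of these 4 genes did not overlap between the experiments, with the precursor genes higher in Exp-156 and Rela and Relb lower, while that of Rel overlapped. Shares of a sum are tied, so a rise in some lowers the others. The level of Rela itself was not lower, with means of 85.5 CPM in Exp-156 and 80.9 CPM in Exp-156b. Levels of single genes without overlap were common, at 30.9% of all tested genes higher and 28.9% lower in Exp-156. How often shares of such a sum do not overlap was not counted. The ratio of Nfkb1 to Nfkb2 overlapped, at 0.731 and 0.763 against 0.679 to 0.804. The shares depend on the length used, an alternative tried after seeing the data. With the longest transcripts Nfkb1 made up 32.2% and 32.4% against 27.6% to 30.2%, and Rela 33.8% and 34% against 35.3% to 38.1%. The ratio of Nfkb1 to Nfkb2 then turned, to 1.78 and 1.86 against 1.66 to 1.96, so which of these 2 mRNAs was the more abundant cannot be said.

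Genes that act before NF-kB were set beside the shares over all tested genes, of which 22.9% were higher and 20% lower in Exp-156. Of 30 kinases and adaptors, 13 were higher and 6 lower in Exp-156 by the edgeR test, with a median log2 difference of 0.15, so the lower share was that of all tested genes. The adaptor of most Toll-like receptors, Myd88, had 73.5 and 77.0 CPM in the Exp-156 libraries against 41.5 to 47.4 CPM in the others (log2 fold change 0.77, SE 0.07; adjusted p = 2.1e-04). Map3k14, the kinase that starts processing of the Nfkb2 product, stood at 27.7 and 24.015 against 13.1 to 14.5 CPM (0.93, SE 0.10). Ticam1, the adaptor of Tlr3 and of one arm of Tlr4 signalling, was lower, at 38.0 and 36.9 against 51.8 to 57.9 CPM (-0.55, SE 0.07), as was Tab1 (-0.50, SE 0.08), which activates the kinase encoded by Map3k7. Of 22 receptor genes 14 were higher and 2 lower, with a median of 0.41. Cd40, a receptor for T cell help, and Il18r1, an interleukin-18 receptor subunit, were higher (2.41 and 2.26), and Il1r1, the interleukin-1 receptor, and Tlr13, a sensor of bacterial ribosomal RNA, were lower (-0.77 and -0.38).

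The same all-gene shares, 22.9% higher and 20% lower, stand beside the inhibitors and targets outside the 10 genes. Of 21 other inhibitors and modulators 9 were higher and 5 lower in Exp-156, with a median of 0.13. Those higher with the smallest p were Zfp36, whose product destroys cytokine mRNAs (221 and 199 against 61.6 to 70.2 CPM; log2 fold change 1.68), and Dusp1, a phosphatase of stress kinases (359 and 189 against 19.1 to 21.8 CPM; 3.72). Tnip1, which works together with the Tnfaip3 product, was lower (63.4 and 59.3 against 92.2 to 108 CPM; -0.73, SE 0.09; edgeR adjusted p = 5.4e-04), as was the ubiquitin-editing enzyme gene Otud7b (-0.51). Among 28 tested of 33 target genes 8 were higher and 10 lower, with a median of -0.10. Cxcl2, a neutrophil attractant (61.1 and 42.5 against 0.99 to 1.69 CPM; 5.19), and Il1b (8.43 and 7.21 against 0.08 to 0.45 CPM; 5.31) were higher. In WT replicates 2 and 3 Il1b was at or below the 3 counts taken as the limit of detection, so the size of its fold change is uncertain. Gadd45b, a stress response gene (-0.77), and Vcam1, an adhesion molecule (-2.56), were lower. The target genes Il6, Il12b, Cxcl3, Nos2 and Csf2 did not pass the filter and were not tested.

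Around Socs3, 12 of 27 tested genes of the STAT3-activating receptors, their kinases and the SOCS family were higher in Exp-156 and 5 were lower, with a median of 0.39. Lifr, the leukaemia inhibitory factor receptor, was higher (21.1 and 18.1 against 2.95 to 5.13 CPM; log2 fold change 2.18), as was Stat5b (0.70). Osmr, the oncostatin M receptor subunit (-1.67), and Il6st, which encodes the gp130 chain that the Socs3 product binds (132 and 157 against 220 to 241 CPM; -0.69), were lower. Socs1, the closest functional relative of Socs3, did not pass (log2 difference 0.77, edgeR adjusted p = 0.0769) and was chosen after its values were seen.

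**Figure D5:**
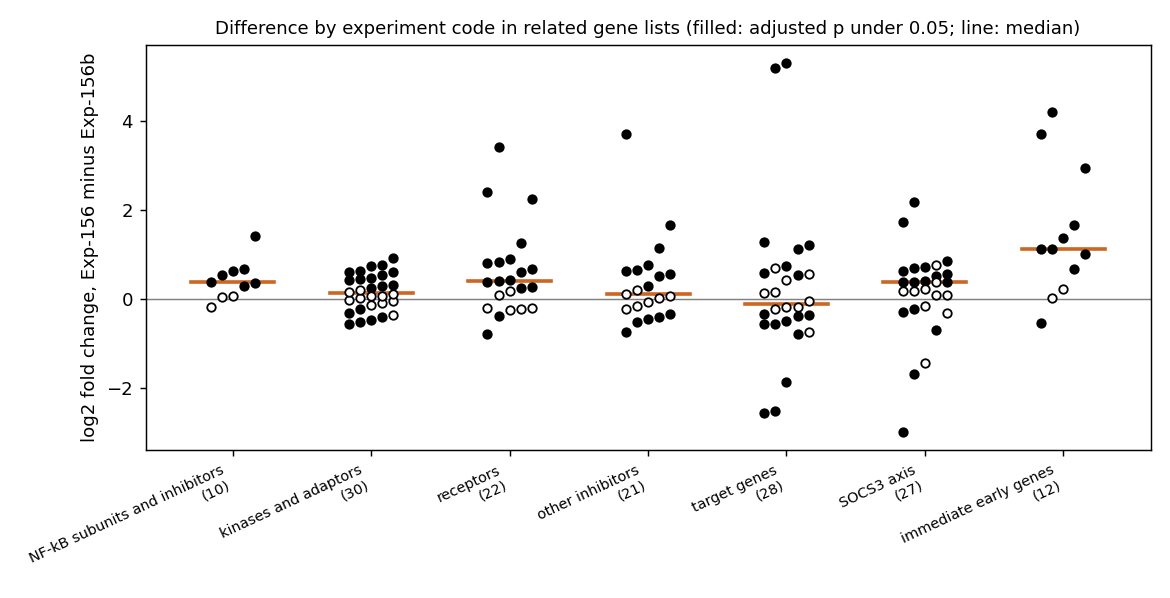
Log2 fold change by experiment code (vertical axis) of the tested genes in the 10-gene set and 6 related lists, 1 point a gene; filled points passed at adjusted p under 0.05 and the line is the median. The 10 genes have a median of 0.38, the target genes scatter to both sides of 0 with a median of -0.10, and the immediate early genes have the highest median, 1.14.

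In the genotype comparison 0 genes of these 5 lists passed in edgeR. The smallest unadjusted p in each were those of Birc3 (log2 difference -0.19, unadjusted p = 0.0222) among kinases and adaptors, Ltbr (0.13, unadjusted p = 0.0933) among receptors, Nkiras2 (0.32, unadjusted p = 0.0080) among other inhibitors, Ccrl2 (-0.42, unadjusted p = 0.0026) among target genes and Socs2 (-0.71, unadjusted p = 0.0188) around Socs3 (all edgeR). The list medians lay between -0.07 and -0.00.

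Other gene groups moved with the experiment code beside these members. Of 12 tested immediate early genes, which answer to handling of cells as well as to signals, 9 were higher and 1, Egr2, was lower in Exp-156 (log2 fold change -0.53), and the list's summed level was 1805 and 2158 CPM against 932.4 to 1014 CPM. Fos alone stood at 308 and 238 against 12.7 to 16.2 CPM. Zfp36 and Dusp1, named above among the other inhibitors, are counted in the immediate early list too, so these lists are not independent. Neutrophil markers summed to 165.6 and 497.9 CPM against 19.2 to 20.6 CPM (3 of 6 tested higher, 8 in the list), with the largest part from Retnlg, while Ly6g and Camp did not pass the filter. Markers of monocytes and small peritoneal macrophages summed to 298.1 and 375.7 against 25.5 to 33.03 CPM (5 of 5 tested higher), eosinophil markers to 98.1 and 240.3 against 10.3 to 21.2 CPM (2 of 2 tested higher), and mast cell markers to 60.65 and 94.0 against 13.9 to 28.2 CPM (5 of 5 higher). The tested eosinophil genes Siglecf and Il5ra gave 75.5 and 18.0 CPM of the 240.3 in WT replicate 1. The rest came from Prg2, Epx and Ccr3, which the filter left out. Large peritoneal macrophage markers summed to 112.6 and 193.2 against 20 to 25.3 CPM (4 of 5 higher, 1 lower), of which Alox15 alone gave 61.25 and 149.5 CPM, and the lower one was Gata6, the defining factor of these cells (5.32 and 6.79 against 12.6 to 17.8 CPM). Dendritic cell markers (2 of 3 tested) and T and NK cell markers (5 of 6, 1 lower) were also higher in part. The dendritic cell list summed to 29.9 and 34.3 against 5.14 to 9.66 CPM. The sums of the T and NK cell list overlapped, at 19.0 and 27.5 against 16.5 to 28.5 CPM. Of 7 B cell markers 0 were higher and 1 was lower, and 4 of 6 mesothelial and fibroblast markers were lower. Of 6 heat shock genes Hspa1a (1.01) and Hspa1b (0.88), near-identical copies whose counts are uncertain, were higher and Hsp90aa1 (-0.25) was lower. For Hspa1b the experiments overlapped, at 4.71 and 12.4 against 3.54 to 5.30 CPM, so only Tg-ACE replicate 1 stood clear. No marker of these lists was at 0 in all libraries. Macrophage core markers summed to 21470 and 21610 CPM in Exp-156 and to 18060 to 22010 CPM in Exp-156b, but most of that sum was Lyz2 (14309 to 18018 CPM). Of the 9 tested rows of that list, 2 of them Itgam, 6 were higher in Exp-156 and 0 lower, with a median log2 difference of 0.91. Itgam stood at 1641 and 1715 against 391 to 627 CPM, and Adgre1, which encodes the macrophage marker F4/80, at 632 and 646 against 214 to 351 CPM. These marker genes were named after their values were seen. The part of these groups in the differences of the 10 genes was not tested, and in such bulk RNA fewer cells of a type and less RNA per cell cannot be told apart. By genotype the summed levels of each of these lists overlapped except those of the heat shock genes, which were 1682 to 1785 CPM in Tg-ACE and 1528 to 1634 CPM in WT (0 of 6 passed).

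The genes whose pattern over the 6 libraries was nearest to a member were found among 9371 named genes by the root mean square difference of log2 CPM after centring each gene on its mean. Nearest to Nfkbia were Arhgef3 (0.0458), Arhgef18 (0.0559) and Pknox1 (0.0584), and nearest to Nfkbiz were Katnal1 (0.0453), Pla2g4a (0.0487) and Zfp800 (0.0525). Sgms1 (0.0344), Haus3 (0.0354) and Fndc3a (0.0369) were nearest to Tnfaip3. Nearest to Socs3 were Ccnd1 (0.107), Plcb1 (0.111) and Trim47 (0.114), and nearest to Rel were Zfp869 (0.0382), Sos2 (0.0403) and Capn7 (0.0438). The difference was not scaled to a gene's own spread, which was widest for Socs3. Its larger values thus do not show a more unusual pattern. Arhgef3 stood at 77.7, 46.8 and 51.6 CPM in WT and 69.1, 44.55 and 40.3 CPM in Tg-ACE, with the high Exp-156 libraries of Nfkbia. None of the 10 members was among these nearest genes of another member.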

How the data were processed

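Stranded poly-A libraries had been read as single 75-base reads, per the labels' protocols. The authors deposited expected counts per gene, not normalized; the submitters' processing notes name RSEM 1.2.25, STAR 2.5.0 and the genome builds GRCh38 and mm10, without their roles. No source used here says whether counting used strand. Groups come from sample titles and codes from sample descriptions; the series' design text calls the second group Tg-NKO. Counts were rounded (11% to 11.4% were not whole), and 92 spike-in rows (1 count in all) were left out. No 2 libraries agreed within sampling noise.

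All 12827 genes kept by filterByExpr were fitted in edgeR 4.0.16 (R 4.3.3; TMM, quasi-likelihood, Benjamini-Hochberg at 0.05) with experiment code and genotype as terms, and once more with their interaction. The filter was grouped by genotype and asks for enough counts in at least 3 libraries. Genes high only in the 2 Exp-156 libraries could thus be left out of the comparison by code. The common biological coefficient of variation was 0.108, against 0.31 with genotype alone. Log2 differences are Tg-ACE minus WT or Exp-156 minus Exp-156b. The SE is the log2 fold change over the root of F, and log2 CPM uses a prior count of 2. The fit was tested on simulated data. Lengths and positions are GENCODE vM21, GRCm38. DESeq2 1.42.0, limma-voom 3.58.1, other scalings and filters, other terms and single left-out libraries were alternatives.

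The members and lists were chosen with earlier results of these data known. From each pathway, immediate early and heat shock list the text names at most the 2 genes per direction with the smallest p among those that passed, or, where none passed, at most 2 with the smallest p; near neighbours needed at least 5 CPM on average. Same-numbered libraries deviated together from their genotype means (r = 0.856, 0.483 and 0.637 over genes), but crossed numbers within Exp-156b did too (0.539 and 0.615), and with the code removed the correlation was -0.0126. The replicate block changed no call among the 10 genes. The table held 0 columns of other samples.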

Additional observations from a re-analysis of the deposited data

How the results depend on the processing

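The count of 7 genes that differed by experiment code was 6 or 7 under the other scalings, filters, tools and terms, and 4 to 7 when single libraries were left out. It was lowest without Tg-ACE replicate 1, where Nfkb1, Nfkb2, Nfkbia and Socs3 remained. The count by genotype was 0 in all 15 alternatives, the fit with the replicate block in place of the code included (0 of 10), and 0 to 0 when single libraries were left out. By interaction it was 0 in 6 of 6. No replicate block could be fitted for the code, in which the replicate number is nested.

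Of 150 alternative genotype values of single genes 16 changed sign. They belonged to Nfkb2, Tnfaip3, Socs3, Rela and Relb, and none of the 10 genes had passed by genotype to begin with. With upper-quartile factors Nfkb2 was 0.0079 by genotype and Rel -0.03035 by code. In the 4 Exp-156b libraries alone Nfkb2 was 0.03413, Tnfaip3 -0.05329 and Socs3 -0.10. With single libraries left out the genotype range was -0.05955 to 0.03463 for Nfkb2, -0.06441 to 0.10 for Tnfaip3, -0.10 to 0.33 for Socs3, -0.02048 to 0.05086 for Rela and -0.03168 to 0.10 for Relb, and by code it was -0.06576 to 0.15 for Rel. The causes were not tested. With transcript lengths 7 of the 10 genes kept their place by level. An alternative added after seeing the data, transcript lengths for the subunit shares, moved the mean share of Nfkb1 from 14.25% to 29.75% and that of Rela from 43.9% to 35.7%.

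Over all genes 5502 differed by code, and 3448 without WT replicate 1 or 3409 without Tg-ACE replicate 1. They split into 2943 higher and 2559 lower, or 2408 and 3332 with upper-quartile factors. By genotype 2 genes passed, against 38 in DESeq2, 9 without a filter, 3 without WT replicate 3 and 0 with genotype alone. By interaction 0 passed in edgeR (981 at an unadjusted p under 0.05) and 0 in limma-voom, and 13 in DESeq2. Exp-156 is 1 library a genotype, and that number limits what can be said of the genotypes within it.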
